A study of Drosophila melanogaster with 12 samples.

Results

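The insulin and TOR pathway of the larval fat body was described through 9 genes of *Drosophila melanogaster*, chosen by name: InR, chico, Pi3K92E, Pi3K21B, Pdk1, Akt1, foxo, Thor and S6k. All 9 were among the 9500 genes of the RNA-seq table, and none was removed by the filter on low values. The larval fat body stores fat and glycogen and secretes blood proteins, tasks that in mammals fall to adipose tissue and liver. Female larvae were sampled at the wandering stage, shortly before pupariation. They were the offspring of w1118 males (a Vienna Drosophila Resource Center stock) and UAS-Dcr2; r4-GAL4 females, reared at 25 °C. All 12 libraries therefore carried the r4-GAL4 driver, which is active in the fat body, and the Dicer-2 transgene UAS-Dcr2. The growth notes of the samples also speak of RNA interference against InR, but the cross they name holds no such transgene, so all libraries were taken as the control genotype. Larvae were fed 1 of 4 diets, with 3 biological replicates each: a high-fructose diet (HFD, 1.7 M fructose), a control fructose diet (CFD, 0.3 M fructose), a high-glucose diet (HGD, 1.7 M glucose) and a control glucose diet (CGD, 0.3 M glucose).

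In this pathway, insulin-like peptides bind the receptor InR, which recruits the substrate Chico and the lipid kinase PI3K, and the lipid it makes brings Akt to the membrane, where Pdk1 phosphorylates it. Active Akt keeps the transcription factor FOXO out of the nucleus and relieves the block on the kinase TOR, which phosphorylates S6 kinase and the translation inhibitor 4E-BP, the product of Thor. Thor is a classical FOXO target in the fly, and in the fat body the pathway couples nutrition to growth and nutrient storage. RNA levels do not report the phosphorylation steps by which most of these proteins are controlled. In the BDGP6.54 annotation, which is not the build of the study, InR, Pi3K92E, Akt1 and foxo lie on chromosome arm 3R, Pdk1 and S6k on 3L, and chico, Pi3K21B and Thor on 2L. Thor spans only positions 3478434 to 3479612 of 2L and has 755 exonic bases, whereas InR spans 21570248 to 21619321 of 3R with 11367 exonic bases.

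The libraries held 3484911 to 11134938 reads in listed genes, as recovered from the deposited values. HFD replicate 2 had the fewest, and its median gene was read 32 times, against 74 to 138 in the other libraries. The paper's read totals of the HFD libraries lay within the range of the other diets. The shortfall was thus in reads of listed genes, not in reads sequenced. The 9 genes were read 61 times (chico in HFD replicate 2) to 1968 times (Thor in HFD replicate 1). Values are in the authors' normalized unit, with glucose libraries multiplied by 0.88 to bring both sugars to one scale. All 7 fat body markers were read in every library. Of them, 1 was called lower in each sugar, Lsp1alpha (log2 change -1.92 with fructose and -1.85 with glucose), and 0 were higher. The summed level of 15 muscle genes was 32680 to 42660 on HFD, against 16130 to 28460 on CFD, and 28540 to 40820 on HGD, against 9276 to 16780 on CGD. Of these muscle genes, 6 were called higher with high fructose and 13 with high glucose, and none was lower. Of 6 hemocyte markers, 1 was higher and 4 were lower with high fructose, and 1 was higher and 5 were lower with high glucose. Of 11 midgut markers, 1 was higher in each sugar, and 5 with fructose and 4 with glucose were lower. Of all genes, 9.4% were called higher and 9.93% lower with high fructose, and 16.7% higher and 12.9% lower with high glucose. In such bulk samples, fewer cells of a type and less RNA per cell cannot be told apart.

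Pi3K92E, S6k and Pdk1, the genes of 3 kinases of the pathway, had more RNA on the high-sugar diet of both sugars. On HFD compared with CFD, 4 of the 9 genes were called, all higher: Pi3K92E, S6k, Pdk1 and Akt1. On HGD compared with CGD, 5 were called, all higher: Pi3K92E, S6k, Pdk1, foxo and Thor. A call means an adjusted p below 0.05 in limma over all 9500 genes, where 9.4% of genes were called higher with fructose and 9.93% lower. With glucose these shares were 16.7% for higher and 12.9% for lower. The libraries of the paired diets did not overlap, and the high-sugar ones were above, for 6 genes with fructose (19.0% of all genes) and for 7 with glucose (24.0% of all genes). The median log2 change of the 9 genes was 0.51 with fructose and 0.50 with glucose, against -0.02 and 0.01 over all genes. The 9 genes were chosen with earlier results of these data known, which limits any comparison of them with all genes. Pi3K92E, S6k and Pdk1 were called higher in both sugars, as were 797 of all genes (8.39%). Over both sugars together 7 of the 9 genes were called, all higher (21.2% of all genes), the exceptions being InR and chico.

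**Figure D1:**
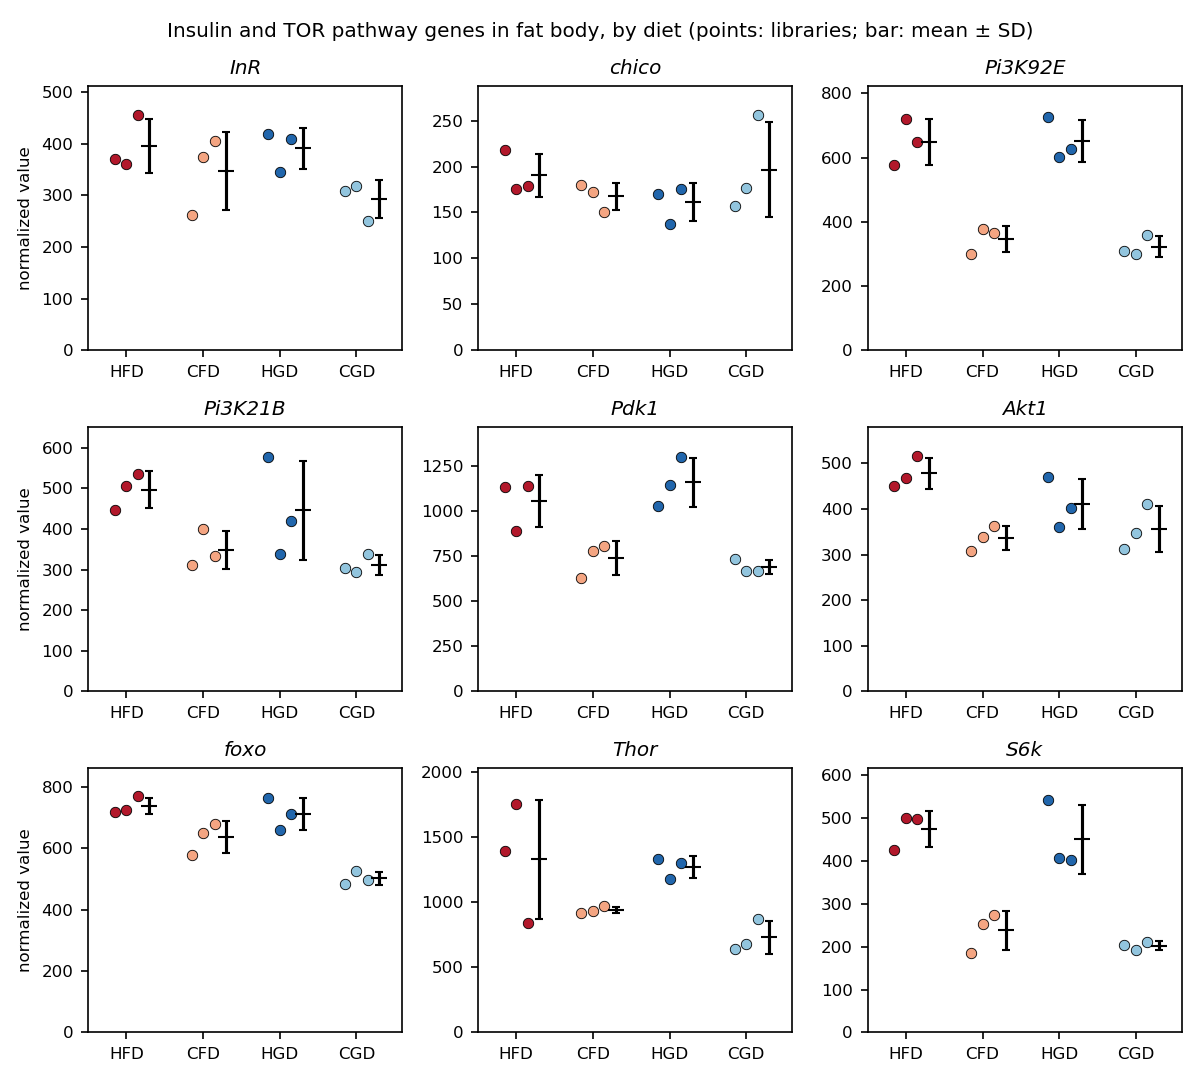
Normalized values of the 9 genes (vertical axis, from 0) in each library (points) of the 4 diets, with the mean and SD of 3 libraries as a bar beside them. Pi3K92E and S6k show a gap between the high-sugar and the control libraries of each sugar, whereas chico overlaps in both and Thor has 1 HFD library, at 841, below all CFD libraries.

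Pi3K92E, the catalytic subunit of the lipid kinase, was the member with the smallest adjusted p in both sugars. Its normalized values were 576, 721 and 648 on HFD, against 301, 377 and 364 on CFD, and 726, 602 and 626 on HGD, against 308, 299 and 360.1 on CGD. Every high-sugar library was above every control library of both sugars. Pi3K92E rose 1.87-fold with fructose (log2 change 0.90, SE 0.14, limma adjusted p = 0.00084) and 2.02-fold with glucose (log2 change 1.01, SE 0.14, limma adjusted p = 0.000228). Its call held in all 23 alternatives for fructose and in 22 of 23 for glucose.

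Pi3K21B, the regulatory subunit that binds the catalytic one, had normalized values of 447, 506 and 537 on HFD, against 312, 400.3 and 333 on CFD. On glucose the values were 578, 339.6 and 420.0 on HGD, against 303, 294 and 339.1 on CGD, so that 1 HGD library lay just above the highest CGD library. Neither comparison passed the test (log2 change 0.51, SE 0.18, limma adjusted p = 0.0595 with fructose; 0.48, SE 0.18, limma adjusted p = 0.0582 with glucose). Over both sugars together the gene was called higher (log2 change 0.50, SE 0.13, limma adjusted p = 0.00667). That call was lost with libraries scaled to their read totals (log2 change 0.29, limma adjusted p = 0.145) and with the mean level of the muscle genes as a covariate (0.44, limma adjusted p = 0.370).

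The balance of the 2 subunits was read from reads within each library, where scaling between libraries cancels. The ratio of Pi3K92E to Pi3K21B reads was 1.29, 1.43 and 1.21 on HFD, against 0.966, 0.943 and 1.09 on CFD, and 1.25, 1.77 and 1.49 on HGD, against 1.02, 1.02 and 1.06 on CGD. All 6 high-sugar libraries were above all 6 control libraries. The log2 ratio was higher by 0.39 with fructose and by 0.53 with glucose, and over both sugars by 0.46 (two-sided exact permutation test within sugars, p = 0.005, the smallest p that its 400 arrangements can give). This was 1 of 4 ratios compared, all picked after the values had been seen, and the p adjusted over the 4 was 0.02. That adjustment does not cover the choice of the 4.

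InR and chico, the receptor and its substrate, were the members called in no comparison. InR, the insulin receptor, had normalized values of 371, 360.6 and 455 on HFD, against 261, 374 and 406 on CFD, with overlap between the diets. On glucose they were 419, 346 and 409 on HGD, against 309, 319 and 250.2 on CGD, without overlap. Neither change passed the test (log2 change 0.21, 95% interval -0.18 to 0.59, limma adjusted p = 0.456 with fructose; 0.42, 95% interval 0.04 to 0.80, limma adjusted p = 0.0892 with glucose).

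Chico, the substrate that docks PI3K on the receptor, had the fewest reads of the 9 genes. Its values were 218, 175 and 179 on HFD, against 179.8, 172 and 151 on CFD, and 170.1, 137 and 176 on HGD, against 157, 177 and 256 on CGD. The diets overlapped in both sugars. The log2 change was 0.18 with fructose (95% interval -0.22 to 0.58, limma adjusted p = 0.533) and -0.26 with glucose (95% interval -0.66 to 0.13, limma adjusted p = 0.300), the only negative point estimate among the 18 of these 2 comparisons. The glucose estimate was -0.06 without CGD replicate 3, the library at 256, and 0.36 with that muscle covariate. An antisense RNA, asRNA:CR44995, shares 380 bases (10.62%) of the chico exons, and since the strand setting of the counting is not given, reads of the pair cannot be told apart. The ratio of InR to chico reads averaged 2.11 on HFD and 2.10 on CFD, and 2.44 on HGD and 1.58 on CGD, and its change over both sugars did not pass (log2 0.36, two-sided exact permutation test, p = 0.165, adjusted over 4 ratios 0.22). The glucose difference of this ratio was 0.69 on the log2 scale, and 0.37 without CGD replicate 3.

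**Figure D2:**
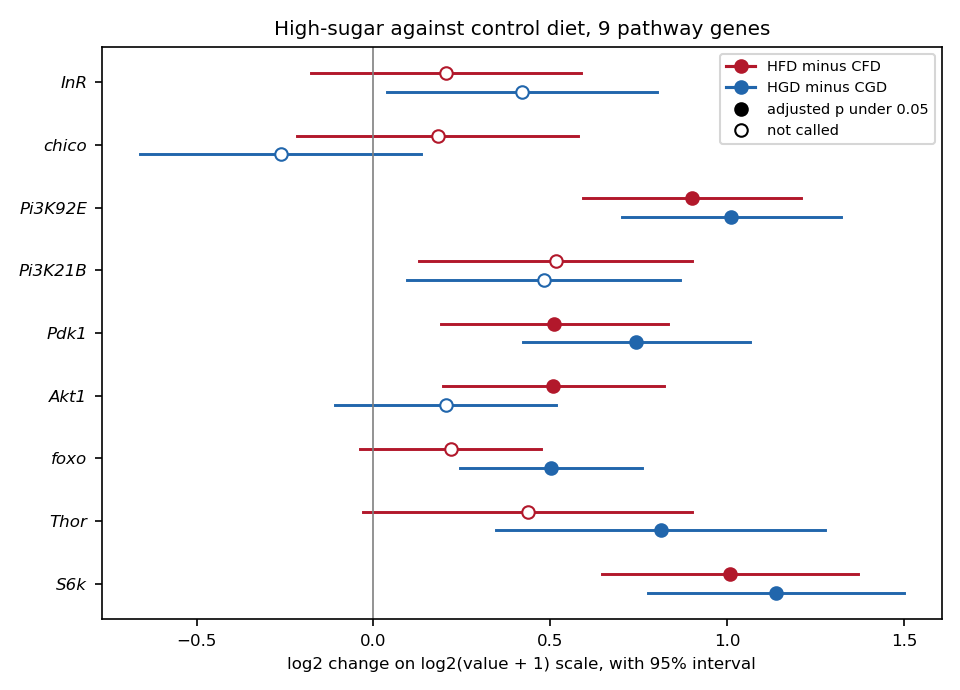
Log2 change of each of the 9 genes (horizontal axis, log2(value + 1) scale) on HFD minus CFD (red) and HGD minus CGD (blue), with 95% intervals as lines. Filled points have an adjusted p under 0.05, which 4 genes reach with fructose and 5 with glucose, all to the right of 0.

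Pdk1, the kinase that phosphorylates Akt and S6 kinase, had normalized values of 1135, 889 and 1141 on HFD, against 631, 781 and 807 on CFD. On glucose the values were 1031, 1148 and 1301 on HGD, against 735, 671 and 666 on CGD. The diets did not overlap in either sugar. Pdk1 rose 1.43-fold with fructose (log2 change 0.51, SE 0.15, limma adjusted p = 0.0283) and 1.67-fold with glucose (log2 change 0.74, SE 0.15, limma adjusted p = 0.00257). The fructose call was lost without CFD replicate 1 (limma adjusted p = 0.113), CFD replicate 2 (0.0511), HFD replicate 1 (0.0821) or HFD replicate 3 (0.0961), and when only HFD and CFD were fitted (0.0520), where Pi3K21B was called in its place (0.0402).

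Akt1, the kinase at the branch point between FOXO and TOR, was called with fructose only, although the difference between the sugars did not pass its own test. Its values were 451, 467 and 517 on HFD, against 308, 338 and 362 on CFD, with no overlap. With glucose they were 470.2, 361 and 402 on HGD, against 313, 347 and 411 on CGD, and the diets overlapped. Akt1 rose 1.42-fold on HFD (log2 change 0.51, SE 0.15, limma adjusted p = 0.0255), while the log2 change on HGD was 0.20 (95% interval -0.11 to 0.52, limma adjusted p = 0.306). The fructose call was lost without CFD replicate 1 (limma adjusted p = 0.088), CFD replicate 2 (0.0638), HFD replicate 2 (0.0646) or HFD replicate 3 (0.0877).

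The gene foxo, which encodes the forkhead transcription factor that Akt restrains, had values of 720.35, 726 and 769 on HFD, against 579, 649 and 679.9 on CFD. On glucose the values were 766, 659.7 and 711 on HGD, against 483, 526 and 497 on CGD. There was no overlap between the diets in either sugar. Only the glucose change passed the test, with a rise of 1.42-fold (log2 change 0.50, SE 0.12, limma adjusted p = 0.00703). With fructose the log2 change was 0.22 (95% interval -0.04 to 0.47, limma adjusted p = 0.219).

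Thor, which encodes the inhibitor of cap-dependent translation 4E-BP, varied most between replicates on HFD. Its values were 1393, 1749 and 841 on HFD, against 919.8, 928 and 969.7 on CFD, so that HFD replicate 3 was below every CFD library while the other 2 were above. On glucose the values were 1332, 1177 and 1300.5 on HGD, against 638, 675 and 874 on CGD, with no overlap. Thor rose 1.75-fold on HGD (log2 change 0.81, SE 0.22, limma adjusted p = 0.0128), a call that was lost without CGD replicate 1 (limma adjusted p = 0.0547). With fructose the log2 change was 0.44 (SE 0.22, limma adjusted p = 0.176). Without HFD replicate 3 it was 0.73 (limma adjusted p = 0.0122). Without HFD replicate 2, the library with the fewest reads in listed genes, it was 0.20 (limma adjusted p = 0.571).

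S6k, which encodes the kinase that TOR activates to phosphorylate ribosomal protein S6, had the largest log2 change of the 9 genes in both sugars. Its values were 426, 499.9 and 498 on HFD, against 186, 254 and 274 on CFD, and 543, 408 and 402 on HGD, against 204, 193 and 212 on CGD. Each high-sugar library was above every control library. S6k rose 2.01-fold with fructose (log2 change 1.01, SE 0.17, limma adjusted p = 0.00114) and 2.20-fold with glucose (log2 change 1.14, SE 0.17, limma adjusted p = 0.000295). The gene overlaps CG42272 on the opposite strand, with 0 shared exon bases.

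S6k and Thor encode the 2 classical TOR substrates, which act in opposite directions on translation. The ratio of S6k to Thor reads was 0.306, 0.285 and 0.593 on HFD, against 0.202, 0.274 and 0.282 on CFD, and 0.409, 0.347 and 0.309 on HGD, against 0.319, 0.285 and 0.242 on CGD. The log2 ratio was higher by 0.58 with fructose and by 0.33 with glucose, where the diets overlapped (two-sided exact permutation test, p = 0.1 and 0.2). Over both sugars it was higher by 0.45 (two-sided exact permutation test within sugars, p = 0.015, adjusted over 4 ratios 0.03). The pair was picked after its values had been seen, a choice that adjusting over 4 ratios does not cover. Without HFD replicate 3, the library with the least Thor RNA on that diet, the fructose difference was 0.24.

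**Figure D3:**
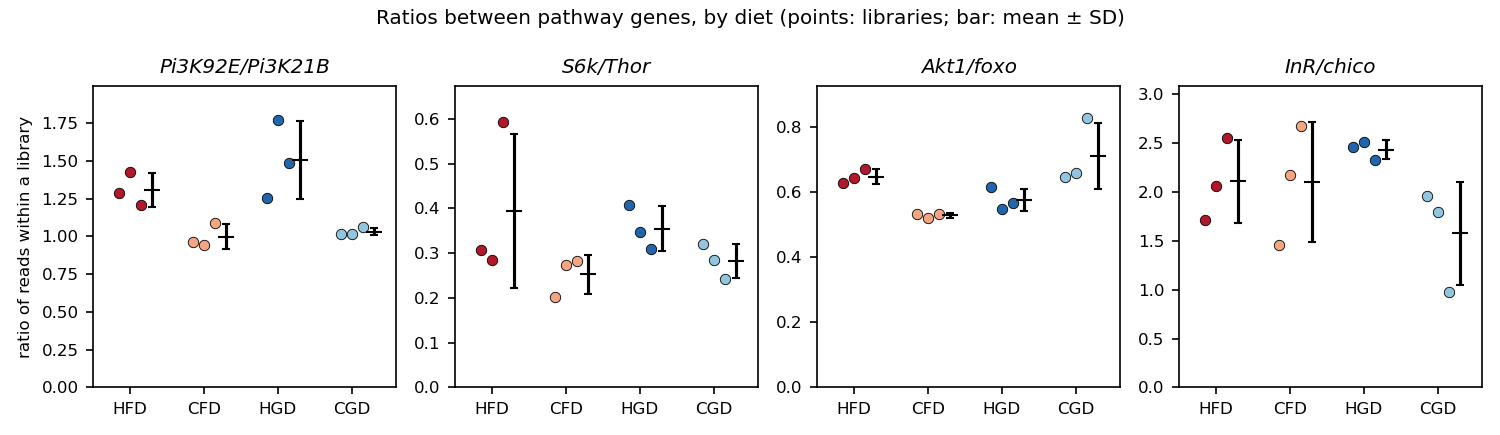
Ratio of reads of a gene pair within each library (points; vertical axes from 0) on the 4 diets, with the mean and SD of 3 libraries as a bar. Pi3K92E over Pi3K21B is higher in all high-sugar libraries, and Akt1 over foxo is higher on HFD than on CFD but lower on HGD than on CGD.

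Fructose and glucose were then compared at the same concentration, which rests on the factor that links their separately scaled values. On CGD compared with CFD, 0 of the 9 genes were called by limma or by limma-voom, and each tool found 1 with an unadjusted p under 0.05; over all genes both tools made 0 calls, with 4.07% of genes under an unadjusted p of 0.05 in limma. That gene was foxo, which was 483 to 526 on CGD, against 579 to 679.9 on CFD (log2 change -0.34, SE 0.12, limma adjusted p = 0.999). Thor was 638 to 874 on CGD, against 919.8 to 969.7 on CFD (log2 change -0.38, SE 0.22, limma adjusted p = 0.999). These were the 2 genes whose CGD libraries all lay below the CFD libraries, as did 4.94% of all genes. On HGD compared with HFD, 0 of the 9 genes were called by limma or limma-voom and 0 had an unadjusted p under 0.05 in either (5.16% of all genes in limma), and the log2 changes were between -0.24 and 0.14. The paper used another test, the edgeR exact test on counts, and did report genes that differed between CFD and CGD. It also reported CG6602 as differing between HFD and HGD. None of the 9 genes was among those it named.

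The difference between the glucose and the fructose response was tested as an interaction. None of the 9 genes passed in limma or limma-voom, and 0 had an unadjusted p under 0.05 in either tool (4.26% of all genes in limma); over all genes limma made 0 calls. The estimates ran from -0.44 for chico (95% interval -1.01 to 0.12) to 0.38 for Thor (95% interval -0.28 to 1.03), and that of Akt1 was -0.30 (95% interval -0.75 to 0.14). The calls of Akt1 in fructose alone, and of foxo and Thor in glucose alone, are thus not shown to differ between the sugars.

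Within libraries, the ratio of Akt1 to foxo reads moved in opposite directions. It was 0.627, 0.643 and 0.672 on HFD, against 0.533, 0.521 and 0.533 on CFD, and 0.615, 0.547 and 0.565 on HGD, against 0.647, 0.660 and 0.827 on CGD. The log2 ratio differed by 0.29 with fructose and by -0.30 with glucose (two-sided exact permutation test, p = 0.1 each, the smallest that 3 against 3 libraries allow). Without CGD replicate 3 the glucose difference was -0.18. Between the control diets, CGD minus CFD, the log2 ratio differed by 0.42 (two-sided exact permutation test, p = 0.1), and between the high-sugar diets, HGD minus HFD, by -0.17. The glucose response minus the fructose response was -0.59, and between -0.65 and -0.48 when each library was left out in turn. A two-sided exact permutation test of that difference, with the sugars permuted within each concentration, gave p = 0.005 (adjusted over 4 ratios 0.02). Such permutation assumes no effect of the sugar at either concentration, so the test does not single out a difference between the responses. The pair was picked after its values had been seen.

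Levels of different genes were compared as normalized value per kilobase of annotated exon. Thor was the highest on every diet, with 1758 ± 606 per kilobase on HFD, 1244 ± 35.4 on CFD, 1682 ± 109 on HGD and 966 ± 168 on CGD (SD, n = 3 each). Next were foxo, with 122 to 179 per kilobase as diet means, and Pdk1, with 105 to 176. The mean of foxo was above that of Pdk1 on HFD (179 ± 6.49 and 160.0 ± 21.8) and below it on HGD (172 ± 12.9 and 176 ± 20.5), by less than 1 SD of Pdk1 each time. Pi3K92E was at 134 and 135 per kilobase on HFD and HGD, against 71.8 and 66.7 on CFD and CGD, where its mean lay close to those of Pi3K21B and Akt1. InR was the lowest on every diet, with 25.8 to 34.8 per kilobase.

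The 9 genes also varied together to different degrees over the 12 libraries, which share the diet groups and the scaling. The highest Pearson correlation of log2(value + 1) was between Pi3K92E and S6k (r = 0.985), followed by foxo and S6k (r = 0.890). Chico was the exception, with r between -0.40 (to InR) and 0.33 (to Akt1). Outside the pathway, the genes most like each called member among 6138 candidates were inx7 (r = 0.995), Adk1 (0.993) and wisp (0.991) for Pi3K92E, and Xrp1 (0.985), hipk (0.985) and Su(z)2 (0.983) for S6k. For Pdk1 they were CG5205 (0.970), Hlc (0.966) and Sp212 (0.965), for Akt1 they were Ulp1 (0.951), Cul-3 (0.942) and Rel (0.941), for foxo they were Su(Tpl) (0.968), CG32479 (0.962) and E2f (0.961), and for Thor they were CG3446 (0.955), bnb (0.933) and CG13933 (0.916). The gene wisp averaged 1084 on HFD and 76.6 on CFD, and 974 on HGD and 46.7 on CGD, a larger change than any pathway member showed.

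Of 17 listed genes around the receptor, PI3K and Akt, 4 were called higher with fructose (9.4% of all genes) and 7 with glucose (16.7% of all genes), and 0 were lower. Higher in both were Ilp6, an insulin-like peptide made by the fat body (log2 change 0.65 and 0.60), ImpL2, a secreted protein that binds insulin-like peptides (0.76 and 0.91), and melt, which encodes the membrane adaptor Melted (0.68 and 0.84). Ilp6 averaged 1932 on HFD, against 1237 on CFD, and 1674 on HGD, against 1079 on CGD. The 14-3-3 gene 14-3-3zeta, whose protein binds phosphorylated FOXO, was called with fructose (log2 change 0.66, SE 0.16, limma adjusted p = 0.0112), and trbl, which encodes the Akt inhibitor Tribbles, with glucose (0.64, SE 0.13, limma adjusted p = 0.003). The fructose count was 1 without HFD replicate 2 or without CFD replicate 1, and 2 without CFD replicate 2 or HFD replicate 3. With library totals 0 genes of the list were called with fructose and 1 with glucose, and with the muscle covariate 0 in each.

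Among 29 genes of the TOR complexes and their inputs, 6 were called higher with fructose (9.4% of all genes) and 8 with glucose (16.7% of all genes), and 0 were lower. Both genes of the inhibitory Tsc complex upstream of TOR were higher in both sugars: Tsc1 (log2 change 0.55 with fructose and 0.58 with glucose) and gig, the fly Tsc2 (0.53 and 0.63). The others in both were L, the fly PRAS40, an inhibitor of TOR complex 1 (0.62 and 0.70), Nup44A, which encodes the Seh1 subunit of the GATOR2 complex (0.65 and 0.82), Tctp (0.62 and 0.56) and REPTOR, CG13624 in the table, the transcription factor that TOR restrains (0.84 and 0.85). Tor itself (log2 change 0.58, limma adjusted p = 0.0131) and Sesn, a sestrin (0.90, limma adjusted p = 0.000982), were called with glucose. The complex 1 subunit raptor and Rheb, the GTPase that activates TOR, passed in neither sugar, with log2 changes between 0.02 and 0.22. Leaving out HFD replicate 2 gave a fructose count of 1, and leaving out CFD replicate 1 gave 3. With library totals 0 genes of the list were called with fructose, and with glucose 2 were higher and 1 was lower. With the muscle covariate 1 was called with fructose and 0 with glucose.

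Downstream of TOR, 1 of 7 genes of cap binding and S6 was called in each sugar, a share near that of all genes (9.4% and 16.7% higher). It was eIF-4a, the helicase of the cap-binding complex (log2 change 0.73 with fructose and 0.82 with glucose), and it was not called with library totals or with the muscle covariate. The cap-binding protein gene eIF-4E, whose product 4E-BP binds, had log2 changes of 0.01 and 0.00, and RpS6, the S6 kinase substrate, -0.09 and 0.08. Neither eIF-4E nor RpS6 passed the test in either sugar (limma adjusted p from 0.832 to 0.989).

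Of 7 further FOXO target genes, 3 were higher and 1 was lower with fructose (9.4% and 9.93% of all genes), and 4 were higher with glucose (16.7% of all genes). Higher in both were Pepck, which encodes the gluconeogenic enzyme phosphoenolpyruvate carboxykinase (log2 change 1.66 and 1.80), bmm, the Brummer triglyceride lipase (1.41 and 1.34), and Ilp6. Pepck averaged 37000 on HFD, against 11630 on CFD, and 42360 on HGD, against 12370 on CGD. The glucosidase gene tobi was lower with fructose (log2 change -1.62, limma adjusted p = 0.0321), at 34.8 on HFD and 93.0 on CFD, and NLaz and Lip4 passed in neither sugar. Without HFD replicate 2, and with the muscle covariate, 2 were higher and 0 were lower with fructose, and 2 in all were called without CFD replicate 1, CFD replicate 2 or HFD replicate 3. With glucose 1 was higher under that covariate, and with library totals 3 were higher and 1 was lower. Of 3 genes of the ATF4 arm, a stress pathway that also controls Thor, 2 were called higher with glucose (16.7% of all genes) and 0 with fructose (9.4% of all genes). They were PEK (log2 change 0.50, limma adjusted p = 0.0293) and Gcn2 (0.73, limma adjusted p = 0.00285). The gene crc, the fly ATF4, passed in neither sugar (0.35 and 0.30). Of these 2 glucose calls, 1 was left with the replicate block, with only the diets compared, and without CGD replicate 1, CGD replicate 2 or HGD replicate 1, and 0 were left with library totals or the muscle covariate.

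**Figure D4:**
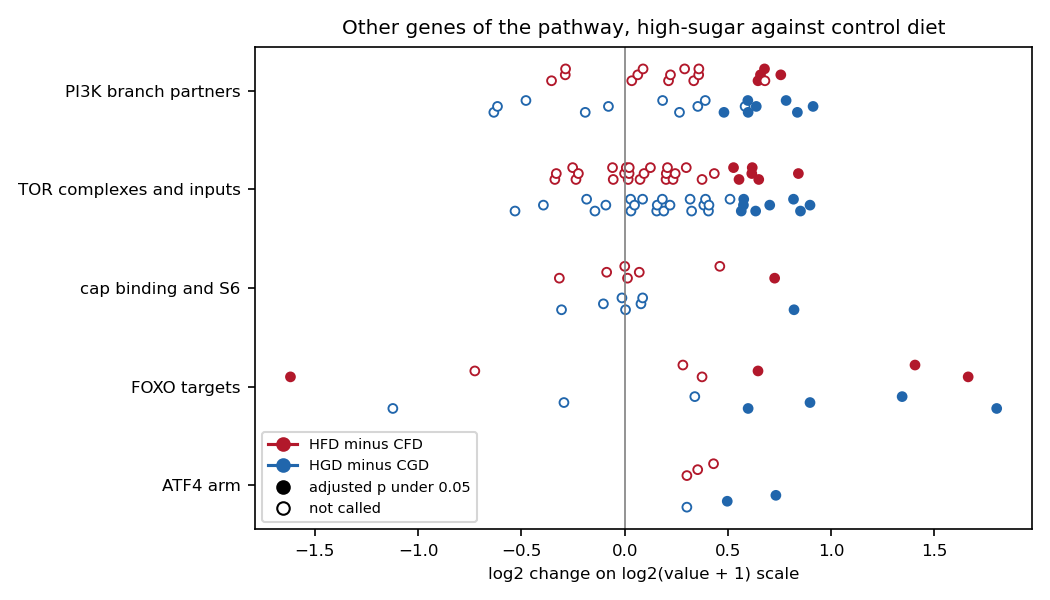
Log2 change (horizontal axis, log2(value + 1) scale) of the other genes of the pathway in 5 lists, on HFD minus CFD (red) and HGD minus CGD (blue), with 1 point per gene; Ilp6 and Sesn are in 2 lists each. Filled points have an adjusted p under 0.05, and tobi at -1.62 is the filled point left of 0.

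The summed level of the muscle list was higher on the same diets as the called members, and other marker lists also differed between diets. Of 7 salivary gland genes, 2 were called higher with glucose (16.7% of all genes) and 0 with fructose (9.4% of all genes). Their summed levels were 9267 to 15420 on HGD, against 2087 to 7844 on CGD, and 14160 to 16730 on HFD, against 10310 to 34310 on CFD. All 7 had negative estimates on CGD compared with CFD (median log2 change -1.90, 0 called). So had all 15 muscle genes (median log2 change -1.02, 0 called). From both lists, the paper's edgeR exact test called Sgs3, Sgs7 and wupA lower on CGD than on CFD. Of the 9 pathway genes, 7 had negative and 2 positive estimates (median log2 change -0.15, against -0.02 over all genes). Without the sugar factor Pi3K92E, Pi3K21B and Pdk1 turned positive. With the muscle covariate InR and S6k turned positive and chico turned negative. Of 3 ring gland genes of ecdysone synthesis, phm (log2 change -3.49 with fructose and -3.56 with glucose) and spok (-3.48 and -4.70) were lower and sad was higher (4.03 and 3.70). The part of the hemocyte, midgut, salivary gland and ring gland lists in these results was not tested. With the mean log2 level of the muscle list as a covariate, 2 of the 9 genes were called with fructose, Pi3K92E (limma adjusted p = 0.0249) and S6k (0.0442), and 0 with glucose, where 1 had an unadjusted p under 0.05. The point estimates with glucose were then 0.84 for Pi3K92E, 0.66 for S6k, 0.60 for Pdk1, 0.29 for foxo and 0.83 for Thor. With fructose they were 0.81 for Pi3K92E, 0.77 for S6k, 0.44 for Pdk1 and 0.52 for Akt1. The median of the 9 genes was 0.48 with fructose and 0.41 with glucose, and the uncalled estimates of InR were -0.13 and -0.24. The covariate itself differs between the diets, so this fit and the diet cannot be fully told apart. With libraries scaled to their read totals, 2 genes were called with fructose and 3 with glucose, and the median change of all genes moved to -0.21 and -0.20. In that scaling 30.3% of all fructose calls and 32.0% of all glucose calls were higher, against 48.6% and 56.4% before.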

How the data were processed

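RNA-seq was done on fat body RNA after rRNA removal. According to the paper, reads were aligned with TopHat and Bowtie to Ensembl R72 gene models and counted with HTSeq; the submitters' notes list other tools, Cufflinks 1.1.0, TopHat 1.3.2 and Bowtie 0.12.7, on build dm3. The sources do not settle which made the table, and the strand setting is not given. The authors deposited a normalized signal, counts adjusted to a common library size, apparently separately for fructose and glucose. Inverting that adjustment recovered whole reads; 99.97% to 100% of values per library were returned within 0.0001, relative or absolute.

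Glucose values were multiplied by 0.88, 2 to the median fructose-minus-glucose log2 level. Genes with a mean of at least 1 were kept (0 removed). The main test was limma (version 3.58.1, R 4.3.3), with a mean-variance trend, on log2(value + 1) of all 12 libraries; p-values were adjusted over 9500 genes by the Benjamini-Hochberg method; fold changes are on that scale and understate low genes. limma-voom on recovered reads was an alternative; others were median-of-ratios factors, library totals, no sugar factor, pseudocounts of 0.1 and 5, no filter, at least 10 in 3 libraries, only the diets compared, a replicate block, a muscle covariate and leaving out each library. Ratios of reads were added after the values were seen. Members and lists were chosen with earlier results of these data known. Named genes were the 9 members, listed genes called in both sugars with up to 4 others per list, and 3 likest genes per called member with a mean of at least 50. In simulated data for HFD against CFD (9500 genes), 50% of 2-fold and 91% of 4-fold changes were recovered, with 9 false calls. Exon lengths and overlaps are from BDGP6.54, not the authors' build. Other steps used Python 3.11.15 with pandas 2.3.3, scipy 1.17.1, numpy 2.4.6 and, for plots, matplotlib 3.10.9. No sequences are shown and larval physiology was not analysed here.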

Additional observations from a re-analysis of the deposited data

Results flagged for a closer look

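The difference between the glucose and the fructose response of the Akt1 to foxo read ratio was -0.5886 on the log2 scale. The ratio was higher on HFD than on CFD in every library, and lower on HGD than on CGD in every library. A two-sided exact permutation test, with the sugars permuted within each concentration, gave p = 0.005, the smallest of 400 arrangements (adjusted over 4 ratios 0.02). Such permutation assumes no effect of the sugar at either concentration, so the test does not single out a difference between the responses. The difference was -0.48 without CGD replicate 3, the library with the highest ratio. The pair was picked after its values had been seen, a choice that adjusting over 4 ratios does not cover.

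For chico, every HFD library lay above the CFD mean and every HGD library below the CGD mean, with a difference of responses of -0.4442 (SE 0.26). The test of that difference did not pass (limma adjusted p = 0.937), and the groups overlapped in both sugars. The CGD mean was raised by CGD replicate 3; without it the difference was -0.24, and over all alternatives it was between -0.59 and -0.13.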

How the results depend on the processing

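The number of the 9 genes called was 4 with fructose, 5 with glucose and 7 over both sugars. Scaled to library totals it was 2, 3 and 3, and with the muscle covariate 2, 0 and 1. Leaving out 1 library gave 2 to 5 with fructose (2 without CFD replicate 1 or CFD replicate 2), 4 to 6 with glucose and 7 to 8 over both. Over all genes, 1836, 2810 and 3985 were called, against 1366, 2005 and 3347 with library totals and 790, 193 and 658 with the muscle covariate. Leaving out 1 library gave 1150 (without HFD replicate 2) to 2033 of all genes with fructose, with 1219 without CFD replicate 1. The cause was not tested. Akt1 lost its fructose call with library totals (log2 change 0.31, limma adjusted p = 0.325), as did Pdk1 in fructose (0.31, 0.432) and glucose (0.52, 0.131) and foxo in glucose (0.28, 0.345). No called change turned its sign in any alternative. Correlations of same-numbered deviations were between -0.362 and 0.206, and those of different numbers between -0.196 and 0.242. With 3 libraries per diet these values cannot settle whether the replicate numbers pair the libraries, and the paper's supplement numbers the HFD libraries differently. With the replicate block 4, 5 and 7 of the 9 genes and 1590, 2502 and 3734 of all genes were called. Fits of only the diets compared were not run for the 2 comparisons that use all 4 diets.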
